A study of Homo sapiens with 7 samples.

Results

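The potassium channel genes described here are the 101 rows on autosomes of the expression table of HepG2, a cell line from a human liver cancer, that carry a gene symbol starting with KCN, out of 30032 rows in all. They hold 96 distinct KCN symbols at 93 distinct loci, and 2 further KCN rows on chromosome X were left out by the rule. The series has 7 samples of HepG2 with no treatment named in the labels, 1 for each assay: native MNase-Seq, RNA-Seq, and ChIP-Seq of the activation marks H3K4me3, H3K9ac and H3K27ac and of the repressive marks H3K27me3 and H3K9me3. The MNase-Seq data give 14217405 nucleosome positions, the ChIP-Seq data give for each position the marks called on it, and the RNA-Seq data give 2 columns of FPKM, called runs here. Each assay has 1 sample and the sources used here do not say whether the runs are separate cultures, so values are given without P values. The files hold no read counts, so the depth behind a single peak or FPKM value is not known.

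Potassium channels let potassium ions leave or enter a cell through a selective pore and so set its membrane potential. Voltage-gated alpha subunits (KCNA to KCND, KCNF to KCNH, KCNQ, KCNS and KCNV) form channels that open on depolarization and are best known from neurons and muscle. Some of them are modifiers that conduct only together with other alpha subunits. Inward rectifiers (KCNJ) hold the resting potential, KCNK subunits carry background current, and auxiliary subunits (KCNAB, KCNE, KCNIP and KCNMB) tune the pore-forming ones. H3K4me3, H3K9ac and H3K27ac mark active promoters, H3K27me3 is the mark of Polycomb repression, often found at the promoters of silent developmental and neuronal genes, and H3K9me3 marks heterochromatin.

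As a check of the label, the 8 hepatocyte markers looked up had 56.6 to 10011 FPKM in their highest row. Of 6 neuron markers, 1 was at 1 FPKM or more, SNAP25, in 1 of its 3 rows (2.1 and 7.07 in runs 1 and 2). None of 5 muscle and 3 blood markers reached 1 FPKM, the highest being CKM with a mean of 0.635.

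The promoters of 7 channel genes are shown as examples of genes whose marks are described below, chosen after their values were seen. They come from RefSeq (GRCh38.p14), from 250 bases before to 50 after the annotated start, with each CG in capitals. The nucleosome data are on another build, hg19, so the marked positions cannot be placed on these letters. KCNJ10 was expressed and held a nucleosome with all 3 activation marks at its start, KCNC4 and KCNK13 were at low levels with H3K4me3 there, KCNH8 was silent with H3K4me3, KCNH1 silent with H3K27me3, KCNK6 silent with both, and KCNE2 silent with neither.
KCNJ10 promoter, chr1:160070111-160070410, minus strand: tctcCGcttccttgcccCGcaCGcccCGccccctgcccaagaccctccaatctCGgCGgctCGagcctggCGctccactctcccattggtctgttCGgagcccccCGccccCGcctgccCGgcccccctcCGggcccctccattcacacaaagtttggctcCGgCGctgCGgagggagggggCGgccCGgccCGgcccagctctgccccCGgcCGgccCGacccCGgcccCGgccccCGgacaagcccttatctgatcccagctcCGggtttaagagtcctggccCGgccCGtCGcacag
KCNC4 promoter, chr1:110210064-110210363, plus strand: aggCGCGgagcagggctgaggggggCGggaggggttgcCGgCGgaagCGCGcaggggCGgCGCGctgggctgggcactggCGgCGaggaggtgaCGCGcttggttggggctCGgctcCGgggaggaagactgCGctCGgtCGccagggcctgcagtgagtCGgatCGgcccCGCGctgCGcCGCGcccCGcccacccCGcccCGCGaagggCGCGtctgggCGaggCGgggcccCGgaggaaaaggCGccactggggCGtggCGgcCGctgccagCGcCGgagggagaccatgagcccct
KCNK13 promoter, chr14:90061744-90062043, plus strand: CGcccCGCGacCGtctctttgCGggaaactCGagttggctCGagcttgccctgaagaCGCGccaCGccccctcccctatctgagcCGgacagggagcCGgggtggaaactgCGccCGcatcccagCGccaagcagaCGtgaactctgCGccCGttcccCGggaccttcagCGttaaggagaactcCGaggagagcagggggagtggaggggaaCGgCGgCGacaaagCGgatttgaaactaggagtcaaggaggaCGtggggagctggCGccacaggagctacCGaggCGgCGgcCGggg
KCNH8 promoter, chr3:19148260-19148559, plus strand: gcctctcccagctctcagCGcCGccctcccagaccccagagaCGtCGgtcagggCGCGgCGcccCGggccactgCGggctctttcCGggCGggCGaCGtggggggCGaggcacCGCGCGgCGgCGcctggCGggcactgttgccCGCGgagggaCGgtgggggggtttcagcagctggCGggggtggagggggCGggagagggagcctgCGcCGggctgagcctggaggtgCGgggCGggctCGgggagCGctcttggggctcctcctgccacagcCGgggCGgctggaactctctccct
KCNH1 promoter, chr1:211134099-211134398, minus strand: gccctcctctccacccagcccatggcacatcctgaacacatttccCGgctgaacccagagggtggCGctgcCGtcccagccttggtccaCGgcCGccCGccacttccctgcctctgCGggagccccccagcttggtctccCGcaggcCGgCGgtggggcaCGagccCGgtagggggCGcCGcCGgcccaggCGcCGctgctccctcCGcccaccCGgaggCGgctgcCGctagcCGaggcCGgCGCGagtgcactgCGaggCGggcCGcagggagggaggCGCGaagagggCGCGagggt
KCNK6 promoter, chr19:38319595-38319894, plus strand: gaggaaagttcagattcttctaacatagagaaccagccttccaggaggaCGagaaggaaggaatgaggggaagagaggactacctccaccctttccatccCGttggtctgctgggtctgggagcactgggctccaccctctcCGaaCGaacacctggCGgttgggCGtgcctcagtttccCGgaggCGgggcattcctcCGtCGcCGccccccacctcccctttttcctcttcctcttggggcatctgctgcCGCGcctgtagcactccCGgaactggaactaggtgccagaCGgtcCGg
KCNE2 promoter, chr21:34363756-34364055, plus strand: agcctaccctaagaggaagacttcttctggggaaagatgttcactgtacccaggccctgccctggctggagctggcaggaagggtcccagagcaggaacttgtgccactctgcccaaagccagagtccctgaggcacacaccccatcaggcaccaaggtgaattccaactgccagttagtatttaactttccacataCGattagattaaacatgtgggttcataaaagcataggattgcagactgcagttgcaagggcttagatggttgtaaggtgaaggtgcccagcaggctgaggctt
These sequences hold 29 CG in KCNJ10, 41 in KCNC4, 31 in KCNK13, 33 in KCNH8, 32 in KCNH1, 16 in KCNK6 and 1 in KCNE2, beside a median of 18 over the 71 channel promoters found and of 14 over the promoters of 26246 autosomal symbols. The count of KCNE2 equals the lowest of the channel promoters found, so these examples do not stand for the channels that share their marks. The table holds promoters for 71 of the 96 KCN symbols, which is below 80%, so a comparison of CpG content between channels of different mark patterns is void and none is given.

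Most potassium channel genes were silent in HepG2. A row was called expressed at a mean of both runs of 1 FPKM or more, silent below 0.1 FPKM and low in between. Of the 101 rows, 12 were expressed, which is 11.9% (exact 95% interval 6.29 to 19.8), while 52.2% of the 21047 autosomal rows with a gene symbol were expressed. There were 19 low rows (18.8%, with 12.2% over all named rows) and 70 silent rows (69.3%, interval 59.3 to 78.1, with 35.5% over all named rows). The median over the channel rows was 0.0373 FPKM and that over all named rows 1.44 FPKM. Of the channel rows, 29 were listed at 0 in both runs, or 28.7%, beside 21.2% of all named rows, and 12 more were listed at 0 in 1 run. In bulk RNA, few cells with a transcript and little transcript per cell cannot be told apart. Intervals here cover counting error only, and neither genes nor neighbouring nucleosomes are independent of each other.

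The level of an expressed channel was often not that of the channel alone. Only 3 of the 12 expressed rows carry 1 symbol and coordinates of their own, 4 carry the symbol of another gene as well, and 8 have the same coordinates as another row. The highest value, 136.6 FPKM in run 1 and 132.7 in run 2, belonged to a row that joins KCNH4, a voltage-gated subunit, with RAB5C, a small GTPase of early endosomes. The next, 64.9 and 63.8, joined KCNAB3, an auxiliary beta subunit, with TRAPPC1, a subunit of a vesicle tethering complex. Another row joined KCNJ14, an inward rectifier, with GRIN2D and GRWD1 at 17.2 and 17.0, and yet another joined KCNRG, which interferes with the assembly of voltage-gated channels, with TRIM13, a ubiquitin ligase, at 7.04 and 6.99. How much of these values comes from the channel gene cannot be read from a joint row.

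Among rows with only a KCN symbol, KCNAB2, a beta subunit with an aldo-keto reductase fold, was highest, with 6.41 FPKM in run 1 and 6.54 in run 2, in a row whose coordinates are also those of NPHP4. KCNJ10, an inward rectifier known from glia and kidney tubules, had 3.83 and 3.58 and coordinates of its own (hg19 chr1:160007256-160040051, minus strand). KCNMB3, a beta subunit of the calcium-activated BK channel, had 2.84 and 3.43 in a row that shares its coordinates with PIK3CA. KCNG3, a modifier subunit that conducts only together with other alpha subunits, had 2.57 and 3.0 in a row that shares them with MTA3. KCNMB4, another BK beta subunit, had 2.23 and 2.29 and coordinates of its own (chr12:70759996-70828051, plus strand). So both of these channels with coordinates of their own lay between 2.23 and 3.83 FPKM in either run.

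KCNQ1OT1, the noncoding antisense RNA of the imprinted KCNQ1 locus, had 1.53 and 1.74 FPKM, while KCNQ1 itself, a voltage-gated subunit of heart and epithelia, was silent at 0.0220 and 0.0377 in a row with the same coordinates. Whether the counting used strand is not given in the sources used here, and without it reads from stretches that both genes cover cannot be told apart. The last expressed row, KCNQ5, rests on run 2: it had 0.403 FPKM in run 1 and 1.76 in run 2. This row lies on the strand opposite to RefSeq's KCNQ5, and the row on the RefSeq strand was silent at 0 and 0.0162. For the 12 expressed rows the median absolute difference between runs was 0.07 on the scale of log2(FPKM + 0.01).

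Just under the limit of 1 FPKM were KCNAB1, a beta subunit, with a mean of 0.787 in a row opposite to RefSeq's strand, and KCNIP4, a calcium-binding partner of the KCND channels, with 0.680. Just above 0.1 FPKM were KCNJ4, an inward rectifier, with 0.109 and KCNF1, a modifier subunit, with 0.108. Just below it was KCNE2, an auxiliary subunit, with 0.0862.

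By family, auxiliary and regulator rows were least often silent and KCNK rows most often. Of 20 auxiliary or regulator rows, 5 were expressed, 7 low and 8 silent. Most of those expressed or low are joint with another gene or share coordinates with another row, so their values may not be the channel's alone. Of 40 voltage-gated alpha rows, 4 were expressed, 5 low and 31 silent. Of 16 KCNJ rows, 2 were expressed, 3 low and 11 silent. Of 15 KCNK rows none was expressed, 2 were low and 13 silent, the highest being KCNK13 with a mean of 0.172 FPKM. Of 8 calcium- or sodium-activated alpha rows none was expressed, 2 were low and 6 silent, the highest mean being 0.178. In the KCNA group, the Shaker-type subunits of axons and T cells, 7 of 8 rows were listed at 0 in both runs, and the eighth is joint with CGB7 and NTF4. The differences between families were not tested.

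**Figure D1:**
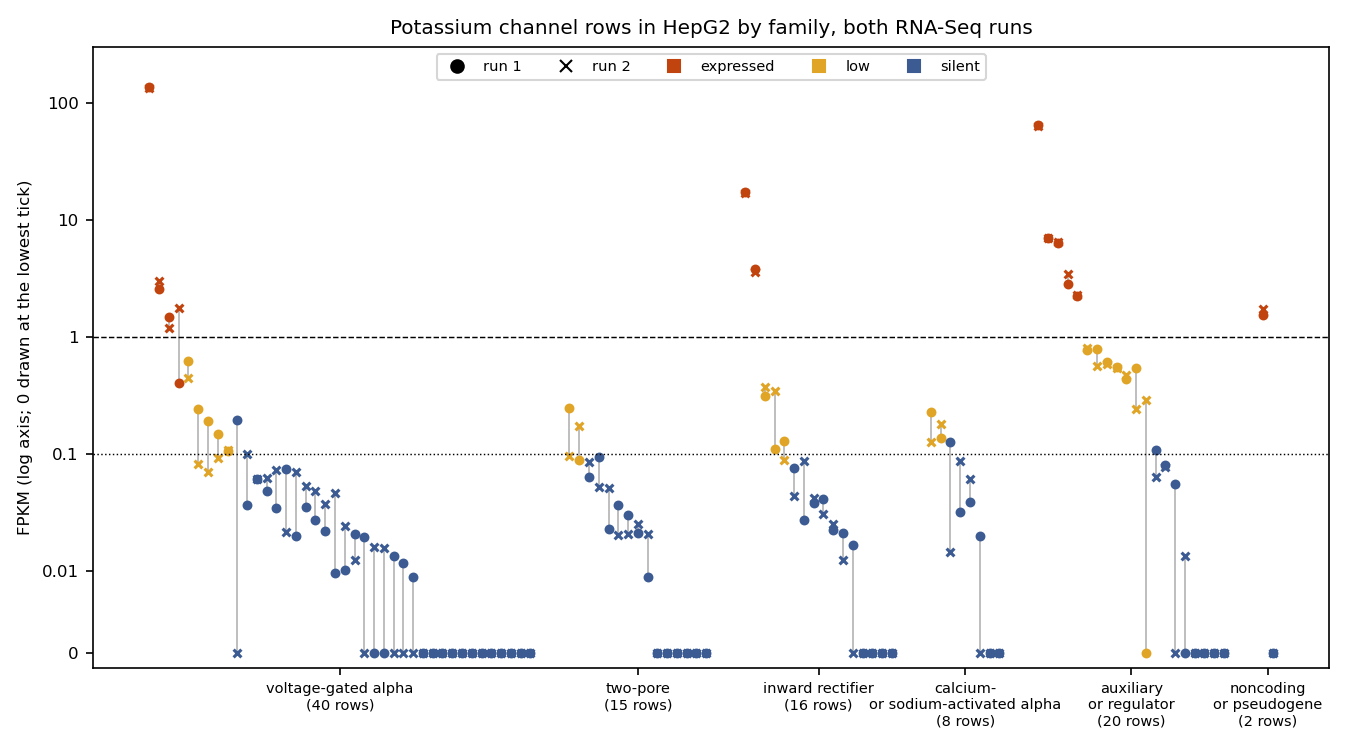
FPKM of the 101 potassium channel rows in HepG2 on a log axis, grouped by family and ordered by mean within it, with run 1 as a circle, run 2 as a cross and colour for the expression class. Dashed and dotted lines mark 1 and 0.1 FPKM. Points at the lowest tick are values of 0, among them both points of the 29 rows listed at 0 in both runs.

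Of other genes tied to potassium transport, some were well expressed and others silent. The counts that follow stand beside 52.2% of all named autosomal rows at 1 FPKM or more. Only the list of 7 cotransporters exceeded that share, which was not tested. The sodium-potassium pump had 5 of 13 listed genes at that level, among them its beta subunits ATP1B1 with 109.3 FPKM and ATP1B3 with 71.9. Of 7 cation-chloride cotransporters 5 were expressed, a joint row included, among them SLC12A7 with 10.1 and SLC12A2 with 3.88. Of 9 partner proteins of channels only ABCC9, the sulfonylurea receptor that pairs with KCNJ8 and KCNJ11, reached 1 FPKM, with 1.26, while KCNJ11 was low at 0.316 and 0.374 and KCNJ8 was silent at 0.0763 and 0.0435. Of the 4 HCN channels, only HCN3 was expressed, with 2.61.

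The second question was which histone marks lay at expressed and at silent channels. Nucleosomes were counted within the locus and 10 kb to either side, and a nucleosome that carries H3K4me3, H3K9ac and H3K27ac together is called trivalent. All 12 expressed channel rows had at least 1 H3K4me3 and 1 H3K9ac nucleosome, as did 98.5% of all expressed named rows for each mark. H3K27ac was found at 10 of 12 (83.3%, interval 51.6 to 97.9, against 97.1%) and trivalent nucleosomes also at 10 of 12 (83.3%, against 95.2%). The rows with neither were KCNMB4 and KCNQ5. H3K27me3 was found at 4 of 12 expressed channel rows (33.3%, against 20.2%) and H3K9me3 at 5 of 12 (41.7%, against 29.5%). All these intervals held the value over all expressed rows.

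At silent channels H3K4me3, H3K27ac and trivalent nucleosomes were less frequent than at all silent named rows and H3K27me3 was more frequent. H3K27me3 lay at 47 of 70 silent channel rows, 67.1% (interval 54.9 to 77.9), against 45.4% of all silent named rows. H3K4me3 lay at 19 of 70 (27.1%, interval 17.2 to 39.1, against 39.3%), H3K9ac at 24 of 70 (34.3%, interval 23.3 to 46.6, against 39.9%), H3K27ac at 11 of 70 (15.7%, interval 8.11 to 26.4, against 29.0%) and trivalent nucleosomes at 7 of 70 (10%, interval 4.12 to 19.5, against 22%). The intervals of H3K27me3, H3K4me3, H3K27ac and the trivalent mark left out the value over all silent rows, and that of H3K9ac held it. For H3K4me3 the margin was narrow, 39.1 against 39.3%. With run 2 alone, H3K4me3 lay at 31.1% of silent channel rows, with an interval of 20.8 to 42.9 that holds 39.3%. H3K9me3 lay at 29 of 70 (41.4%, interval 29.8 to 53.8, against 37.1%). A repressive mark without any activation mark was found at 31 silent channel rows (44.3%, interval 32.4 to 56.7, against 28.6%), and no mark at all at 10 (14.3% of 70, against 22.1%), among them KCNJ1, KCNJ2, KCNK5 and KCNN3. The difference in the activation marks was narrower among the 30 silent channel rows above 0 in both runs, set beside the silent named rows above 0 in both runs. There H3K4me3 lay at 46.7% (interval 28.3 to 65.7, against 55.2%), H3K27ac at 36.7% (interval 19.9 to 56.1, against 37.6%), trivalent nucleosomes at 23.3% (interval 9.93 to 42.3, against 27.3%) and H3K27me3 at 63.3% (interval 43.9 to 80.1, against 54.8%), and each interval held the value over all such rows. The 40 silent channel rows listed at 0 in at least 1 run had H3K27ac at 0 (interval up to 8.81, against 26.3%) and H3K27me3 at 28 (70%, interval 53.5 to 83.4, against 42.4%).

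The 19 low rows had H3K4me3 at 15 (78.9%, against 78.4%), H3K9ac at 15 (78.9%, against 77%), H3K27ac at 9 (47.4%, against 65.8%), trivalent nucleosomes at 8 (42.1%, against 56.0%) H3K27me3 at 10 (52.6%, against 38.4%) and H3K9me3 at 7 (36.8%, against 32.2%).

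**Figure D2:**
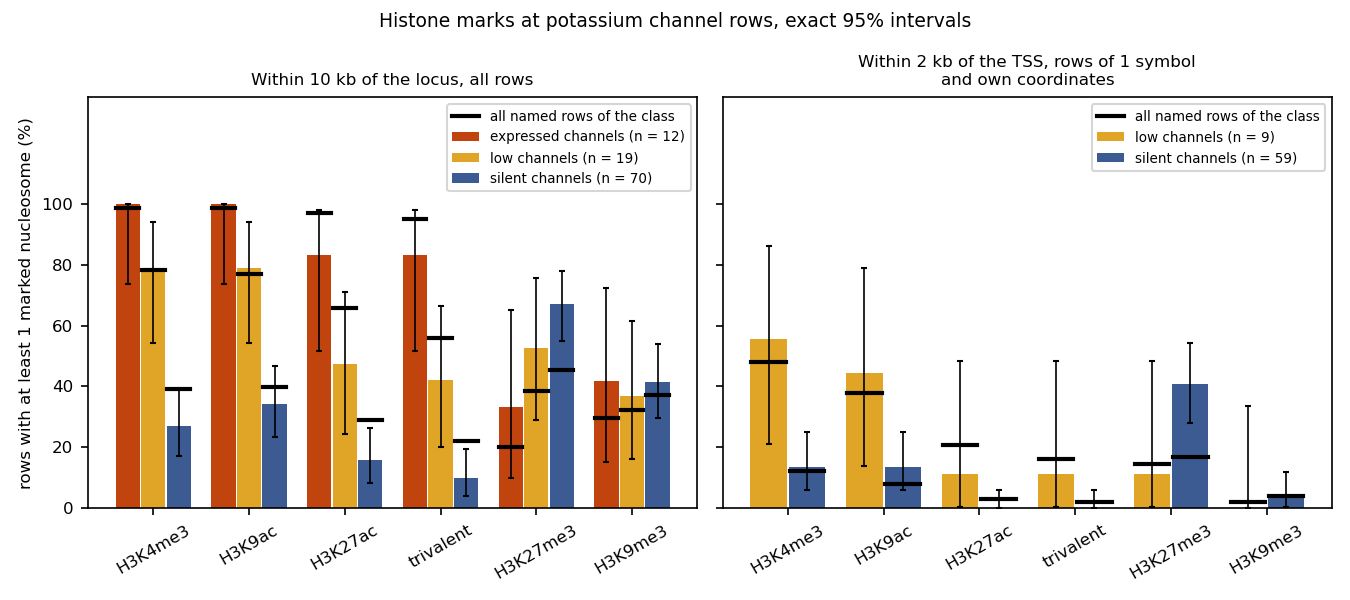
Percentage of channel rows with at least 1 nucleosome of each kind, within 10 kb of the locus (left) and, for rows of 1 symbol and own coordinates, within 2 kb of the listed start (right), with exact 95% intervals as error bars and a black line for all named rows of the same class. The silent channels stand above their line for H3K27me3 in both panels, at 67.1% and 40.7%.

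Channel loci are long, with a median of 58509 bp against 37017 bp over all named rows, and a longer window holds more positions. As a share of positions the difference in H3K27me3 was small: 150 of 53040 positions at silent channels carried it, 0.283% (interval 0.239 to 0.332), against 0.254% at all silent named rows and 0.186% of all autosomal positions. At expressed channels it was 0.116% (14 of 12117 positions), against 0.0740% at all expressed rows. Of these 14 positions, 11 lay in the window of KCNQ5, which has an expressed and a silent row and so counts in both classes. H3K9me3 covered 0.206% of positions at silent channels and 0.216% at all silent rows. H3K27ac covered 0.175% of positions at silent channels (interval 0.142 to 0.215), against 0.425%, and trivalent nucleosomes 0.0698% (interval 0.0491 to 0.0961), against 0.191%. The window of KCNQ1, which is also that of the expressed KCNQ1OT1, held 45 of these 93 H3K27ac and 13 of these 37 trivalent positions. Over rows of 1 symbol and own coordinates, silent channels had H3K27me3 at 0.293% (against 0.304%), H3K27ac at 0.114% (interval 0.0837 to 0.151, against 0.219%) and trivalent nucleosomes at 0.0568% (interval 0.0364 to 0.0845, against 0.0888%). At expressed channels trivalent nucleosomes covered 0.594% (interval 0.465 to 0.748), against 0.895%, and H3K27ac 1.34% (interval 1.14 to 1.56), against 1.68%. At the 3 expressed rows of 1 symbol and own coordinates this was not so, with trivalent nucleosomes at 0.898% (interval 0.412 to 1.70, against 0.966%) and H3K27ac at 2.30% (interval 1.46 to 3.42, against 1.78%). So H3K27me3 at silent channels was near the level of other silent genes per position over the whole window, and H3K27ac and trivalent nucleosomes were below it.

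The difference in H3K27me3 stood out near the start sites. The start was taken from the row's coordinates and strand, for the 71 rows with 1 symbol and own coordinates, since a row that shares its coordinates has no start of its own. Within 2 kb of the start, 24 of 59 silent channels had H3K27me3, 40.7% (interval 28.1 to 54.3), against 16.7% of the 5406 silent named rows of the same kind. H3K4me3 was there at 8 of 59 (13.6%, against 12.0%) and H3K9ac at 8 of 59 (13.6%, against 7.79%). H3K27ac was at 0 of 59 (interval up to 6.06, against 3.09%), trivalent nucleosomes also at 0 of 59 (against 1.89%) and H3K9me3 at 2 of 59 (3.39%, against 4.0%). Of the 9 low rows of this kind, 5 had H3K4me3 at the start (against 48.1%), 4 H3K9ac (against 37.8%), 0 H3K9me3 (against 2.14%) and 1 each H3K27ac (against 20.7%), a trivalent nucleosome (against 16.3%) and H3K27me3 (against 14.5%). Of the 3 expressed rows, 2 had H3K4me3 and H3K9ac (against 92.4% and 91.5%), 1 had H3K27ac and a trivalent nucleosome (against 87.2% and 85.2%) and 0 had H3K27me3 or H3K9me3 (against 1.59% and 1.04%).

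With the rows of shared coordinates or several symbols included, 28 of 69 silent channels had H3K27me3 within 2 kb of the listed start (40.6%, against 14.9%), 8 H3K4me3 (11.6%, against 16.4%), 8 H3K9ac (11.6%, against 12.5%), 0 H3K27ac (against 8.27%), 0 a trivalent nucleosome (against 6.91%) and 2 H3K9me3 (2.90%, against 3.8%). Both H3K4me3 and H3K27me3 lay at 2 of these starts (against 3.42%). Of the 12 expressed rows only 3 had H3K4me3 and 3 H3K9ac at the listed start (against 79% and 78%), 2 had H3K27ac (against 74.6%), 2 a trivalent nucleosome (against 71.8%) and 0 H3K27me3 or H3K9me3 (against 1.56% and 0.982%). For 9 of these 12 rows the listed start is not known to be that of the channel.

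By length, H3K27me3 lay somewhere in the window of 12 of 22 silent channel rows under 20 kb (54.5%, against 29.5% of all silent rows of that length), 10 of 22 of 20 to 100 kb (45.5%, against 45.9%) and 25 of 26 longer rows (96.2%, against 77.8%). H3K4me3 lay at 31.8%, 36.4% and 15.4% of these rows, against 26.8%, 45.7% and 57.5%. Within 2 kb of the start, H3K27me3 was found at 11 of 22 rows under 20 kb (50%, against 11.3%), 4 of 22 of 20 to 100 kb (18.2%, against 13.7%) and 13 of the 25 longer rows with an inferred strand (52%, against 23.7%). These counts include rows that share coordinates.

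Sorted by H3K4me3 and H3K27me3 at the start, 22 of the 59 silent channels (37.3%, against 12.9%) had H3K27me3 without H3K4me3. Among them were KCNA1 to KCNA6, KCNB2, KCNC2, KCND2, KCND3, KCNG1, KCNH1, KCNJ3, KCNK3, KCNK12, KCNK17, KCNMA1, KCNQ3, KCNS2, KCNT2 and KCNV1. Another 6 (10.2%, against 8.31%) had H3K4me3 without H3K27me3, namely KCNC1, KCNE4, KCNH2, KCNH8, KCNS1 and KCNS3, and 2 (3.39%, against 3.74%) had both, KCNK4 and KCNK6. The other 29 (49.2%, against 75.0%) had neither.

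The H3K27me3 nucleosomes lay on both sides of the start, 17 upstream and 28 downstream within 2 kb over the 59 silent channels. Of the 24 starts with the mark, 13 held 1 such nucleosome, 7 held 2 and 4 held 3 or more. KCNK12, a background channel subunit listed at 0 FPKM in both runs, had 4 of them, at -376, -211, +254 and +404 bp. KCNA1, the Shaker-type subunit of axons, had 3 at -396, +609 and +1337 bp, and KCND3, an A-type subunit of heart and brain, 3 at -1364, -1119 and -139 bp. KCNA3, the subunit of T cells, had 2, the nearer of which at -226 bp also carried H3K9ac. KCNH1, whose promoter is shown above, had 2 at +741 and +921 bp. KCNK4, a mechanosensitive background channel, held 8, the highest number, all downstream from +124 to +1914 bp, and that at +564 bp also carried H3K4me3 and H3K9ac. Over all channel windows 2 positions carried H3K4me3 and H3K27me3 together, and the share over all named rows was not computed.

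KCNK6 held both methylation marks on separate nucleosomes, H3K27me3 at -378 and +1897 bp and H3K4me3 at +129 and +332 bp, with 0.0300 and 0.0208 FPKM. KCNN2, a calcium-activated subunit of low level (0.230 and 0.127 FPKM), likewise had H3K4me3 at -829 bp and H3K27me3 at +124 and +1628 bp.

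**Figure D3:**
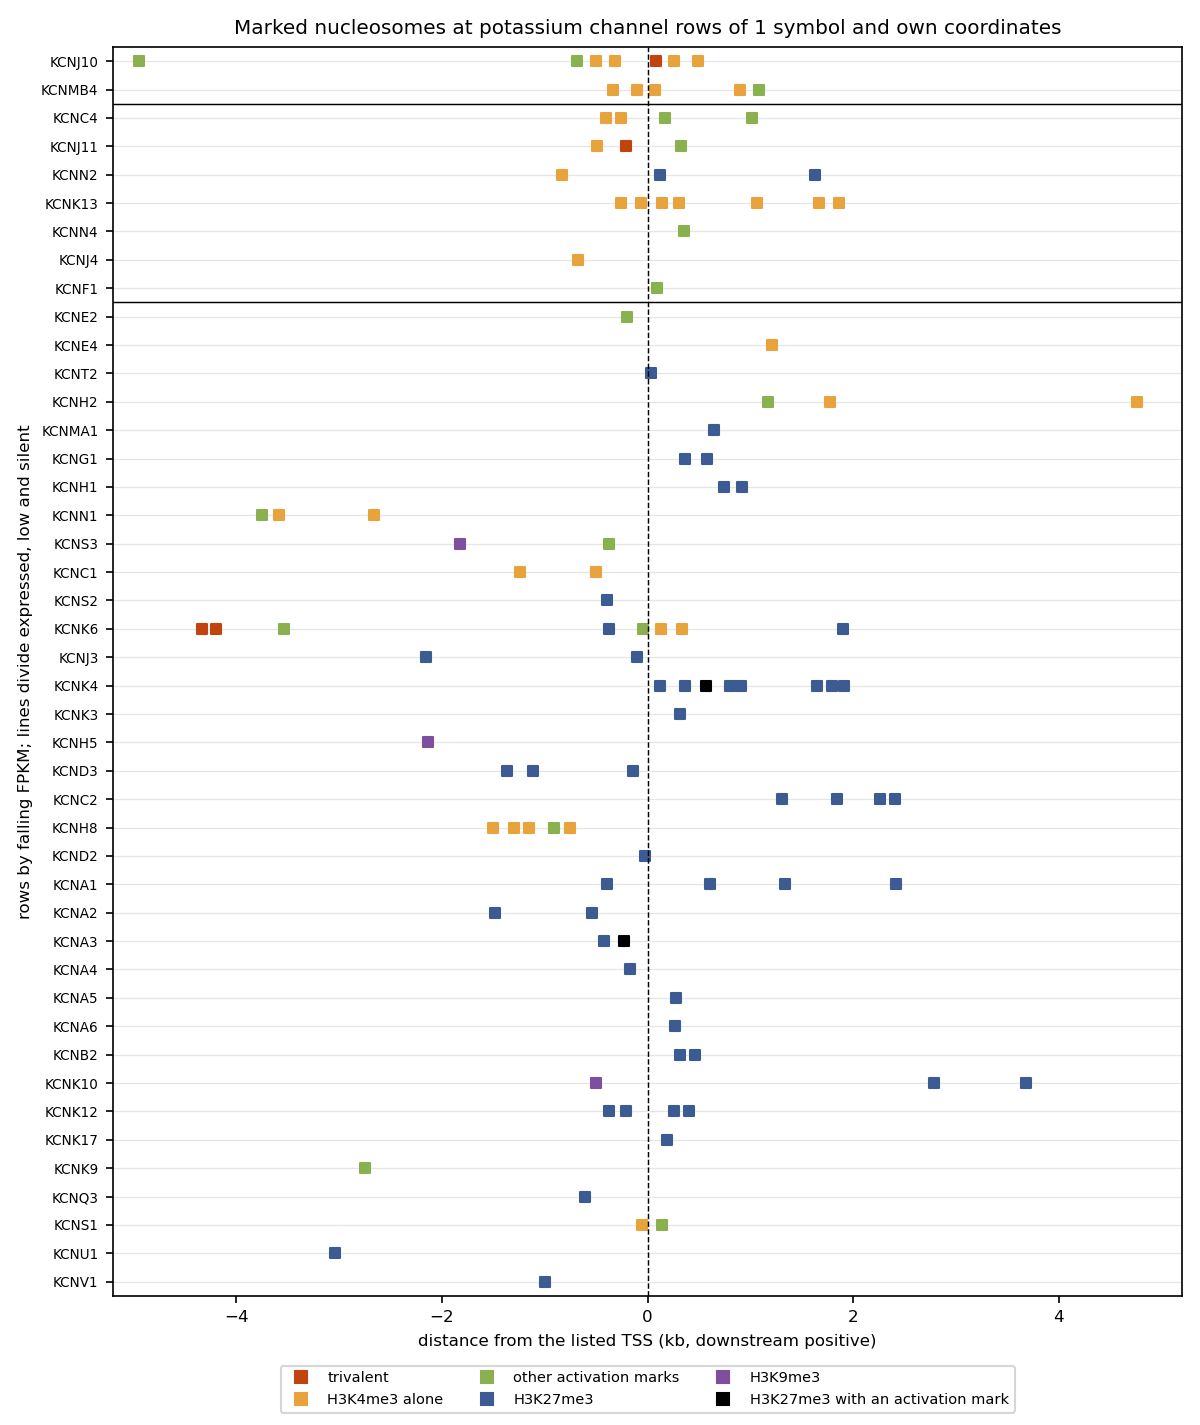
Marked nucleosomes within 5 kb of the listed start at 44 channel rows of 1 symbol and own coordinates that have any, ordered by FPKM, with distance in kb on the x axis and colour for the marks. H3K27me3 lies on either side of the start at silent rows below the lower line, and the expressed and low rows above it hold mainly H3K4me3 there.

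H3K4me3 with few or no acetyl marks was found at several channel starts. KCNK13, a background channel subunit, had 0.249 FPKM in run 1 and 0.0959 in run 2, and 7 nucleosomes from -260 to +1863 bp with H3K4me3 as their only mark. KCNC4, a voltage-gated subunit with fast inactivation, had 0.629 and 0.451 FPKM and 4 H3K4me3 nucleosomes at its start, of which those at +172 and +1012 bp also carried H3K9ac and none H3K27ac. KCNMB4, although expressed, had 5 H3K4me3 nucleosomes at its start, 1 of them with H3K9ac, and neither H3K27ac nor a trivalent nucleosome in its window. KCNH8, silent at 0.0118 and 0 FPKM, had 5 H3K4me3 nucleosomes, all upstream between -1503 and -753 bp.

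KCNJ10 and KCNJ11 each had a trivalent nucleosome at the start. KCNJ10 had it at +78 bp among 5 H3K4me3 nucleosomes, and the other 5 trivalent nucleosomes of its window lay within 2 kb of the start of PIGM, a neighbouring gene of GPI anchor synthesis. KCNJ11, the pore of the channel closed by ATP in beta cells, had it at -208 bp.

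Trivalent nucleosomes in the windows of silent channels belonged to other places than the channel's start. Of 37 such nucleosomes at 7 rows, 0 lay within 2 kb of the channel's own listed start, 14 within 2 kb of the start of another named row and 23 elsewhere. The neighbours were IGSF8 for KCNJ9, DCAF7 for KCNH6, ARRDC2 for KCNN1, YIF1B for KCNK6 and FAM165B for KCNE2. KCNQ1 had 13 and KCNK4 had 10, none within 2 kb of the listed start of a named row. Gene starts inside a joint or shared row are not listed and were not looked at. KCNQ1 had by far the most H3K27ac among silent channels, 45 nucleosomes in a window it shares with KCNQ1OT1. Among low rows KCNJ13, an inward rectifier of epithelia with 0.110 and 0.347 FPKM, had 13 trivalent nucleosomes. Its coordinates are shared with NGEF and with a joint row of C2orf82 and GIGYF2. Of the 13, 5 lay within 2 kb of the listed start, which is not known to be that of KCNJ13. Another 4 lay within 2 kb of the start of the joint row. KCNIP2, a calcium-binding partner of KCND channels, had 6 trivalent nucleosomes at a locus listed on both strands. At the start on RefSeq's strand 0 of the 6 were found. All 6 lay within 2 kb of the start of the opposite row, and the start of MGEA5, a neighbour, was as near to some of them.

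The most H3K27me3 nucleosomes among silent and low rows were found at long loci. KCNIP4 had 23 in a window of 6351 positions, KCNAB1 13 in 2356, KCNQ5 11 in 2995 and KCNK2, a mechanosensitive background channel, 10 in 1320. KCNIP4 likewise had the most H3K9me3 nucleosomes, 26, followed by KCNMB2, a BK beta subunit, with 10 in 1709 positions. Next were KCNJ6, a G protein-gated inward rectifier, with 9 in 1611, and KCNH5, a voltage-gated subunit of brain, with 8 in 2097. Per position, H3K9me3 was more frequent at KCNMB2 and KCNJ6 than at KCNIP4. At KCNIP4 1 of the 23 H3K27me3 nucleosomes was within 2 kb of the listed start, and at KCNK2, KCNH5 and KCNJ6 none was.

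By family, H3K27me3 at the start was most frequent among voltage-gated alpha rows, with 17 of 31 silent rows, against 14.9% of all silent named rows. The KCNA group had it at 6 of 7. It was found at 5 of 13 silent KCNK rows, 3 of 11 KCNJ rows, 2 of 6 calcium- or sodium-activated rows and 1 of the 7 auxiliary rows with an inferred strand, the last a share near that of all silent rows. KCNA10 was the silent KCNA row without it and had no mark in its window. These family counts include rows with shared coordinates.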

How the data were processed

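Native MNase-Seq, ChIP-Seq of 5 histone marks and RNA-Seq of HepG2 were used, with 1 sample per assay. The authors deposited nucleosome positions called with DANPOS, and per mark a list of the positions that NUCLIZE called enriched, as coordinates with no score or read count. Each peak carries the identifier of its position and reaches 3 bp beyond it, and peaks were joined to positions by that identifier. The authors deposited expression as FPKM in 2 columns with locus coordinates, and whether these are separate cultures is not stated. Columns of the authors' own comparison of these runs were not used. The submitters' processing notes name hg19, BWA, Bowtie, TopHat2 2.1.0 and HOMER 4.7, without saying which file each was used for.

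The mean of both runs gave the class (expressed at 1 FPKM or more, silent below 0.1). A position counted where its midpoint lay within 10 kb of the locus, or within 2 kb of the start (TSS). Strand was inferred from the order of locus numbering. It matched RefSeq for 8078 of 8113 rows checked (99.6%) and for 70 of 75 channel rows. Shares have exact Clopper-Pearson 95% intervals beside the share over all named autosomal rows of the class, which include the channels. No test was run. Members, families, marker and other gene lists were chosen with earlier results of these data known. Genes named by rule were every expressed row, the 5 silent or low rows with the most H3K27me3, H3K9me3 or trivalent nucleosomes, the 2 rows on each side of a class limit, and noncoding KCN rows at 0.1 FPKM or more. Other genes were named after their values were seen. Values of some genes that this rule or the lists cover are not reported here by name, and these genes are kept in the counts. Counting was tested on simulated positions. The work was done in Python 3.11.15 with scipy 1.17.1 for intervals, pandas 2.3.3 and numpy 2.4.6 for tables and matplotlib 3.10.9 for plots.

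Alternatives were other windows, overlap by coordinates, class limits of 0.1 and 5 FPKM, a pseudocount of 1, each run alone, and subsets of rows. Taking 1 row per locus and restricting starts or positions to rows of 1 symbol and own coordinates were chosen after seeing the data.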

Additional observations from a re-analysis of the deposited data

How the results depend on the processing

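No paired analysis was possible because each assay has 1 sample and no groups of samples were compared. Of 232 values recomputed under an alternative, 176 stayed within the interval of the reported value, or for counts within 1.5 times, and 56 moved. No value moved with either run alone, a window of 5 kb, 1 row per locus or without noncoding and pseudogene rows. Joint and shared rows limit what the expressed class says of channels: of 12 expressed rows, 3 were left among rows of 1 symbol and own coordinates, where H3K27me3 was found at 0% of them. There were 31 expressed rows at a limit of 0.1 FPKM and 5 at a limit of 5 FPKM.

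Within 2 kb of the listed start, expressed channels had H3K4me3 and H3K9ac at 25.0% each, H3K27ac and trivalent nucleosomes at 16.7% each, and H3K27me3 and H3K9me3 at 0%. For rows of 1 symbol and own coordinates these were 66.7% for the first pair, 33.3% for the second and 0% for the last. At silent channels the same window gave 11.6% for H3K4me3 and for H3K9ac, 0% for H3K27ac and trivalent nucleosomes, 40.6% for H3K27me3 and 2.90% for H3K9me3, and with rows of 1 symbol and own coordinates 13.6%, 13.6%, 0%, 0%, 40.7% and 3.39%.

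At silent channels, counting inside the locus only gave 14.3% for H3K4me3, 22.9% for H3K9ac and 1.43% for trivalent nucleosomes, which a window of 2 kb put at 2.86%. Silent rows above 0 in both runs had 46.7% for H3K4me3 and H3K9ac, 36.7% for H3K27ac and 23.3% for trivalent nucleosomes, above the values over all silent named rows but not above those over the silent named rows that are above 0 in both runs. Silent rows with no other named row within 10 kb had 21.4% for H3K9ac, 7.14% for H3K27ac and 0% for trivalent nucleosomes. With a limit of 5 FPKM, H3K27ac and trivalent nucleosomes were at 100% of the 5 expressed channel rows (interval 47.8 to 100). Each of these rows is joint with another gene or shares its coordinates with another row.

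As shares of positions at expressed channels, a limit of 0.1 FPKM gave 0.224% for H3K27me3, 0.228% for H3K9me3, 0.834% for H3K27ac and 0.371% for trivalent nucleosomes, and a limit of 5 FPKM gave 0.0600%, 0.0300%, 1.83% and 1.11%. With rows of 1 symbol and own coordinates, chosen after seeing the data, expressed channels had 0% for H3K27me3, 2.30% for H3K27ac and 0.898% for trivalent nucleosomes, and silent channels 0.114% for H3K27ac. At silent channels, counting any overlap of at least 1 bp gave 0.379% for H3K27me3 and 0.302% for H3K9me3, and a window of 2 kb gave 0.0358% for trivalent nucleosomes. Why these values moved was not tested, beyond the change in rows or windows that each setting makes.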
